A study of Drosophila melanogaster with 21 samples.

Results

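The Ush-B experiment of this study comprises 8 RNA-seq libraries of Drosophila S2 cells, 4 from control cells (dsEGFP) and 4 from cells in which the Ush-B isoform was targeted (dsUsh-B), each numbered replicate 1 to 4. Described here are the genes whose levels separated the 4 libraries of replicates 1 and 2 from the 4 libraries of replicates 3 and 4, irrespective of the dsRNA. This split was selected on the normalised counts of the same 8 libraries, whose values were in view, so the difference across it is given as a description and without a test. The 8 libraries belong to a series of 21 samples, of which 9 further RNA-seq libraries (3 dsEGFP, 3 dsUsh and 3 dsMi-2) form a first table that was normalised separately and took no part in the choice. Of 17737 genes in the Ush-B table, 9648 had a mean normalised count of at least 5 and were considered.

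S2 cells are an established, hemocyte-derived cell line. They were grown in Schneider's medium with fetal bovine serum, transfected with double-stranded RNA and harvested 4 days later, the control receiving a dsRNA against EGFP. The dsUsh-B fragment targets 1 isoform of the transcription cofactor U-shaped, the dsUsh fragment all isoforms, and the dsMi-2 fragment the nucleosome remodeller dMi-2. The methods name S2 cells that stably express Cas9 for the RNAi and mention 3 independent transfections, whereas the Ush-B table holds 4 libraries per group. Neither the labels nor the methods say which libraries share a culture, a passage, a transfection day or a sequencing run, so p-values given below measure only the spread between these libraries.

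Hemocytes are the blood cells of the fly. Plasmatocytes, the most frequent type, engulf microbes and dying cells through receptors such as Eater and other members of the Nimrod family, and lamellocytes encapsulate large intruders with the help of prophenoloxidases. Established lines such as S2 are polyploid populations without a fixed karyotype, passaged for long periods, and individual cultures of a line can differ in which genes they transcribe. Only RNA was measured in these libraries, not DNA copy number, and in a bulk sample fewer cells that express a gene cannot be told apart from less RNA per cell.

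The 8 libraries held 46181614 to 59387417 reads on genes, and the ranges of replicates 1 and 2 and of replicates 3 and 4 overlapped in depth as well as in the share of mitochondrial large ribosomal RNA (3.37% to 5.47% over all). On the first principal component of the log2 values (41.8% of the variance) the libraries of replicates 1 and 2 lay between 9.73 and 38.4 and those of replicates 3 and 4 between -46.6 and 3.91. The value of 3.91 belonged to dsEGFP replicate 3, which stood apart from all others on the second component (23.8% of the variance) at 52.4, against -34.3 to 8.37. Counts below are therefore also given without that library. Distances between the reads of 2 libraries (chi-square per degree of freedom) did not all follow the split. By them, dsEGFP replicate 3 lay at 158 and 137 from dsEGFP replicates 1 and 2. It lay at 412 and 438 from dsEGFP replicate 4 and dsUsh-B replicate 3. The nearest library to dsUsh-B replicate 2 was dsUsh-B replicate 4 (57.3). The closest 2 libraries were dsEGFP replicate 4 and dsUsh-B replicate 3 (37.0). Replicates 3 and 4 were thus not a uniform set. Of the hemocyte markers, the GATA factor gene srp (7601 to 11010 normalised counts) and the scavenger receptor gene crq (15100 to 29340) were high in all 8 libraries, whereas NimC1, a further plasmatocyte marker, reached at most 6.11. The 6 fat body markers had at most 19.0 and the 4 midgut markers at most 4.22 normalised counts in any library, with the trypsin genes betaTry and alphaTry at 0 throughout. The neuronal genes elav (1142 to 2119) and brp (2367 to 4317) were well expressed in all 8 libraries.

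In total, 196 genes were at least 2-fold higher in replicates 1 and 2, and 61 were at least 2-fold higher in replicates 3 and 4, with no overlap between the 4 and the 4 libraries. These are 2.03% and 0.632% of the genes considered, shares that follow from the choice of the split and have no further meaning as a test. Differences are given as the mean of log2(normalised count + 1) in replicates 1 and 2 minus that in replicates 3 and 4, fitted with the dsRNA as a term, with the standard error of that fit. The median over all 9648 genes was -0.01. A difference of at least 4-fold was seen for 89 and 39 genes, and of at least 32-fold (5 on the log2 scale) for 13 and 3 genes. Irrespective of size, 799 genes (8.28%) separated the 4 from the 4 libraries. The members nearest to the 2-fold limit were IFT52 at 1.01 and Pura at -1.003, and those just outside it were CG32277 at 0.998 and CR43130 at -0.97. Without dsEGFP replicate 3 the numbers were 269 and 142, and 244 of the 257 genes were still counted. Leaving out a library cannot create an overlap, so a gene could be lost only through the 2-fold limit or the minimum mean. The 244 are therefore not read as a check of the 257.

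The largest differences were those of genes that were well expressed in replicates 1 and 2 and close to absent in replicates 3 and 4. CG11929, an uncharacterised gene, had 3625 and 4106 normalised counts in dsEGFP replicates 1 and 2 and 4296 and 4204 in dsUsh-B replicates 1 and 2. The values in replicates 3 and 4 were 5.6 and 0.90 in dsEGFP and 2.38 and 2.82 in dsUsh-B, a difference of 10.15 ± 0.41. In the following lists the order is the same: dsEGFP 1 and 2, dsUsh-B 1 and 2, then dsEGFP 3 and 4 and dsUsh-B 3 and 4.

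Abd-B, the Hox gene that specifies the posterior abdominal segments, had 695, 1203, 701 and 1159 normalised counts in replicates 1 and 2 and 0.93, 0, 0 and 0 in replicates 3 and 4. Only 1 read fell on it in the latter 4 libraries, against 3738 in the former, a ratio of 4033 after scaling to library totals, with an exact 95% binomial (Clopper-Pearson) interval from 723 to 159300 that covers counting error only. All 4 libraries of replicates 3 and 4 were thus at or next to 0. Because such values depend on the pseudocount, the log2 difference of 9.59 became 7.45 with a pseudocount of 5 and 10.45 with 0.5.

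The muscle gene TpnC4, which encodes a troponin C of flight muscle, had 286, 284, 328 and 541 normalised counts in replicates 1 and 2 and 1.87, 12.6, 20.2 and 4.70 in replicates 3 and 4 (5.39 ± 0.68). TpnC4 overlaps CG30438 in the gene annotation, and as it is not stated whether reads were counted by strand, reads of overlapping genes cannot be told apart. Among uncharacterised genes, CG42694 had 109 to 213 against 0 to 3.73, and CG30089 had 175 to 446 against 3.76 to 12.6. CR43105, annotated as a pseudogene, had 46.5 to 163 against 0 to 5.6. CG14957 differed strongly within replicates 1 and 2, with 114, 304, 693 and 6340 normalised counts, and had 6.30 to 13.1 in replicates 3 and 4 (5.76 ± 1.07).

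**Figure D1:**
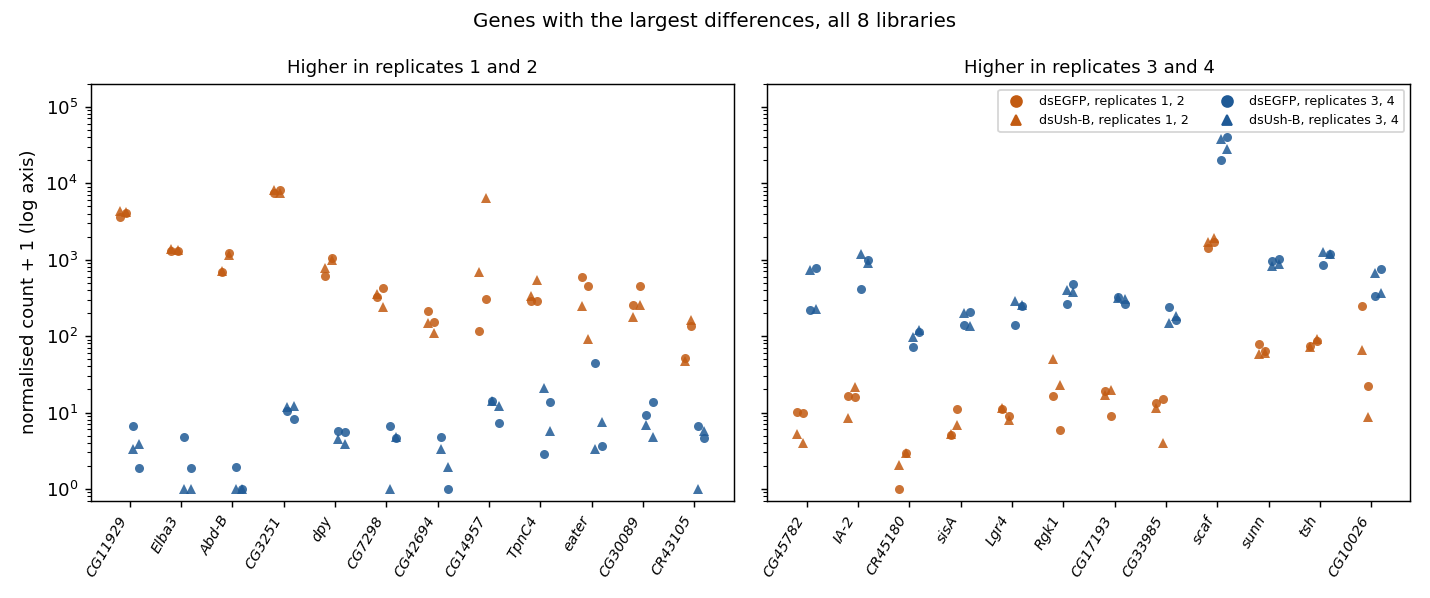
Normalised counts plus 1 on a log axis of the 12 genes with the largest differences in each direction (mean of at least 50), with 1 point per library; circles are dsEGFP and triangles dsUsh-B, orange replicates 1 and 2, blue replicates 3 and 4. For CG11929 the orange points lie between 3625 and 4296 and the blue points between 0.90 and 5.6, and for scaf the orange points lie between 1436 and 1887 and the blue points between 20304 and 40090.

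Of the 61 genes higher in replicates 3 and 4, none was at 0 in all 4 libraries of replicates 1 and 2. In the other direction 4 of the 196 were at 0 in all 4 libraries of replicates 3 and 4. A high-side mean of at least 50 with a low-side mean under 5 was seen for 3 of the 61 and 10 of the 196. Nearness to 0 on the low side is therefore not read as a difference between the directions. The most abundant of the 61 was scaf, which encodes a serine protease homologue known from dorsal closure of the embryo. It had 1436, 1709, 1686 and 1887 normalised counts in replicates 1 and 2 and 20304, 40090, 37508 and 28323 in replicates 3 and 4 (-4.19 ± 0.25). All 4 libraries of replicates 3 and 4 were far above the other 4.

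The homeotic zinc-finger gene tsh, which acts in the trunk segments, had 72.3, 85.6, 71.8 and 90.2 against 852, 1167, 1244 and 1178 (-3.77 ± 0.15). Values of sunn, a gene for sister chromatid cohesion in meiosis, were 78.4, 63.7, 57.0 and 58.8 against 951, 1009, 834 and 884, and its difference of -3.82 had the smallest standard error among the 24 largest genes (0.07). IA-2, which encodes a phosphatase-like protein of dense-core vesicles, had 15.3, 14.9, 7.39 and 20.6 against 408, 996, 1170 and 909 (-5.79 ± 0.48). In all 3 genes every library of replicates 3 and 4 was above every library of replicates 1 and 2.

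The others of this direction were expressed at lower levels. They included the bZIP gene sisA, an X-linked signal element of sex determination in the embryo (4.07 to 9.95 against 135 to 205), the leucine-rich repeat receptor gene Lgr4 (6.86 to 10.6 against 137 to 289) and the small GTPase gene Rgk1 (4.98 to 49.6 against 262 to 482). CG45782, CR45180, CG17193, CG33985 and CG10026 completed the 12. CG10026 came closest to overlap, with 249 normalised counts in dsEGFP replicate 1 and 329 in dsEGFP replicate 3.

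The difference was also taken in control and in Ush-B-depleted cells separately. In dsEGFP alone, 350 genes were at least 2-fold higher in replicates 1 and 2 without overlap, in dsUsh-B alone 322, and 188 were found in both, which is 53.7% of the former and 58.4% of the latter. For genes higher in replicates 3 and 4 the numbers were 109 and 227, with 72 in both (66.1% and 31.7%). Only 3 genes moved in opposite directions. Across the 9648 genes the difference in dsEGFP correlated with that in dsUsh-B at r = 0.774. This is a description across genes, which are not independent, and although no library is shared between the groups, all 8 libraries entered the choice of the split. The 257 genes had to differ in the same direction in both dsRNA groups by the way they were chosen, so their differences in the separate groups are not given as support.

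Whether the split and the dsRNA interacted is a question the choice of the split did not use, and was tested with limma. No gene of 9648 (0%) had an adjusted p under 0.05 for the interaction. Before adjustment 36 genes had a p under 0.05, far fewer than chance alone gives at that threshold over 9648 genes, so the p-values were too large. The fit took the 8 libraries as independent, although deviations of some dsEGFP and dsUsh-B libraries correlated (given at the end). Whether this made the p-values too large was not tested. EdgeR and DESeq2 also called 0 genes. Each combination of replicate pair and dsRNA held 2 libraries, and the standard error of the interaction was 0.74 on the log2 scale for CG11929 and 1.55 for eater. The absence of calls therefore does not show that the differences were equal in both dsRNA groups.

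**Figure D2:**
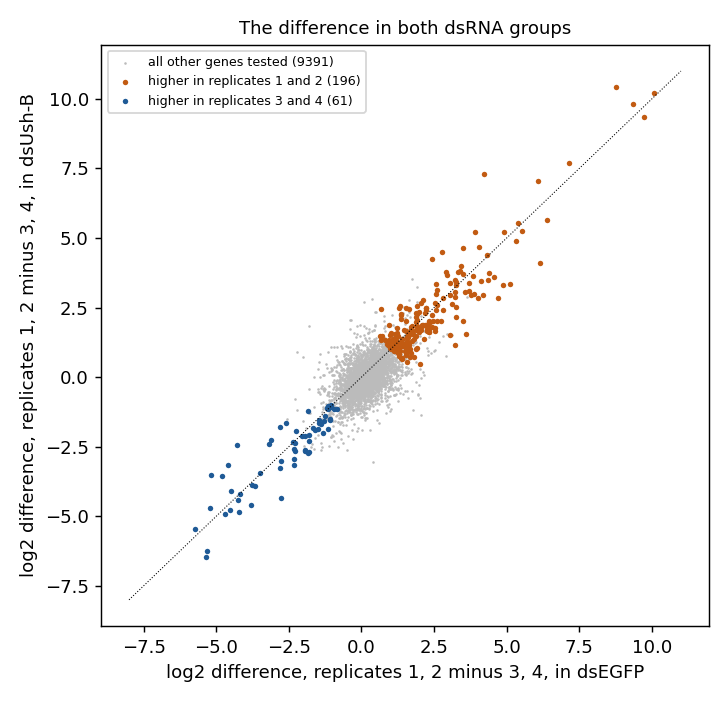
Log2 difference between replicates 1 and 2 and replicates 3 and 4 in dsEGFP (x axis) and in dsUsh-B (y axis) for 9648 genes, on log2(normalised count + 1). Orange and blue points are the 196 and 61 genes that were at least 2-fold apart without overlap, the dotted line marks equal differences, and r was 0.774 over all genes.

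Several hemocyte genes were higher in replicates 1 and 2. Eater, a phagocytic receptor for bacteria, had 588, 452, 249 and 91.2 normalised counts in replicates 1 and 2 and 43.0, 2.7, 2.38 and 6.58 in replicates 3 and 4 (5.12 ± 0.91). The Nimrod family gene NimC4, whose product binds dying cells, had 828, 1161, 1846 and 1720 against 224, 223, 269 and 252 (2.45 ± 0.18). PPO3, the prophenoloxidase of lamellocytes, had 792, 808, 828 and 677 against 214, 145, 112 and 204 (2.24 ± 0.24). Within each of the 3 genes the libraries of replicates 3 and 4 were low in both dsRNA groups, and eater also spread widely within replicates 1 and 2.

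The plasmatocyte gene Hml was present at low levels, with 29.4 to 49.9 against 4.70 to 16.2 (1.78 ± 0.34). Spz, the ligand of the Toll receptor, had 10594, 9022, 8870 and 3796 against 2982, 920, 674 and 783 (2.78 ± 0.48), and the antimicrobial peptide gene CecA2 had 32.4 to 85.5 against 8.33 to 31.0. The crystal cell gene PPO1 had 50.9, 3.98, 34.9 and 3.92 against 8.40, 0.90, 0 and 0.94, so the groups overlapped.

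Other genes of the same functions were not counted. The counts per list below are a description, to be read beside the shares over all genes of 2.03% higher in replicates 1 and 2 and 0.632% higher in replicates 3 and 4, at which lists of this size hold few counted genes or none. Of 10 plasmatocyte markers considered, 3 were counted as higher in replicates 1 and 2 and none as higher in replicates 3 and 4, with a median difference of 0.22 against -0.01 over all genes. The values of crq, srp, Pxn and the collagen IV genes Col4a1 and vkg overlapped between replicates 1 and 2 and replicates 3 and 4. Of 2 lamellocyte markers considered, 1 was counted (PPO3). The other, ItgaPS4, had 42.8 to 128 against 30.8 to 89.3, so the groups overlapped. The lamellocyte marker atilla had at most 1.06 normalised counts in any library and was below the minimum level. Of 11 phagocytosis receptors 2 were counted (eater and NimC4, median 0.07), of 14 Toll pathway genes 1 (spz, median 0.11), of 7 antimicrobial peptides 1 (CecA2, median 0.48), and of 17 IMD pathway and 14 basement membrane genes none, although 1 IMD pathway gene, the NF-kappaB factor gene Rel, separated the 4 from the 4 libraries at less than 2-fold (-0.25). Rel was named after its value was seen.

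Among genes that serve every cell, none of 48 for mitosis (median -0.04), 28 for DNA replication, 85 for cytosolic ribosomal proteins (-0.17), 72 for mitochondrial ribosomal proteins, 34 for the proteasome (0.06), 14 for glycolysis (0.19), 13 for heat shock proteins (0.41) or 7 for the NuRD chromatin complex was counted. With 2.03% and 0.632% of all genes counted, the zeros are not read as a property of these lists. In all, 12 of the 52 lists with a gene considered held at least 1 counted gene, and in 2 of them such a gene was higher in replicates 3 and 4. These 2 were the fatty acid synthesis genes, with the fatty acid synthase gene FASN3 (326 to 439 against 901 to 1441, -1.75 ± 0.20), and the genes with a CR symbol below.

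Of 52 cytochrome P450 genes, 3 were higher in replicates 1 and 2 (median of the list 0.34), against 2.03% of all genes. Cyp6a22 had 90.8 to 114 against 4.76 to 14.4, Cyp12b2 had 23.2 to 143 against 3.73 to 22.6 and Cyp49a1 9.16 to 13.7 against 2.7 to 7.47. Of 23 genes for the vacuolar proton pump only Vha36-2 was counted, with 26.5 to 49.9 against 6.30 to 10.3.

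The list of non-coding genes was made by the CR symbol and also held pseudogenes. Of its 538 genes, 16 were higher in replicates 1 and 2 and 9 in replicates 3 and 4. Over all genes the shares were 2.03% and 0.632%. CR43883 had 3919 to 8077 against 1255 to 3607 (1.15 ± 0.33). CR43186, annotated as a pseudogene, had 57.0 to 305 against 2.82 to 8.11. In the other direction, CR45177 had 25.3 to 58.8 against 142 to 206 and CR46148 8.45 to 33.3 against 64.4 to 159. Of 163 small nuclear and nucleolar RNAs 5 were counted, all higher in replicates 1 and 2, a share near the 2.03% of all genes, and the median of the list was 0.32. Among them, snoRNA:Me28S-A1322 had 67.7 to 105 against 33.3 to 50.8 and lies within the span of its host gene eEF1alpha1. Of 9 ribosomal RNA genes 2 were counted (median 1.15), pre-rRNA:CR45845 with 527 to 1056 against 66.8 to 401 and 28SrRNA-Psi:CR45853 with 11.8 to 18.9 against 1.87 to 9.91. Ribosomal RNA genes are near-identical copies, and their counts are uncertain for that reason. Of 17 mitochondrial genes 1 was counted, mt:tRNA:Gly-TCC with 3.98 to 12.2 against 1.80 to 3.73 normalised counts, and the median was 0.22. The library kit selects polyadenylated RNA, and the part of ribosomal and other short RNA that remained in each library was not tested.

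Position on the chromosome was not used by the choice of the split. On the 6 chromosome arms, 255 counted genes were placed in the order of a Release 6 gene table, and 92 of them (36.1%) lay directly next to another counted gene of the same direction among the 9600 genes considered, in 35 runs of 2 to 7 genes. Of all genes considered, 2.03% and 0.632% were counted in the 2 directions, and the share in runs that these would give was not computed. Some neighbours in runs overlap in the annotation, such as HP6 with dpy, Bsg25A with CG11929 and TpnC4 with CG30438. Reads of such pairs cannot be told apart, which can raise the 36.1%. The share is therefore a description only. The runs and the genes named from them were picked after their values were seen. The longest run was on arm 2L and held 7 genes, dpy, HP6, CG11929, Bsg25A, Elba3, CG3251 and CG34351, all higher in replicates 1 and 2. Dpy encodes a giant protein of the apical extracellular matrix, HP6 a relative of heterochromatin protein HP1, and Bsg25A and Elba3 subunits of the Elba insulator complex of the early embryo.

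CG3251 had 7489, 8141, 8132 and 7435 normalised counts in replicates 1 and 2 and 9.34, 7.21, 10.7 and 11.3 in replicates 3 and 4 (9.53 ± 0.12). Elba3 had 1299, 1310, 1388 and 1344 against 3.73, 0.90, 0 and 0, and dpy 602, 1049, 766 and 1001 against 4.67, 4.50, 3.57 and 2.82. HP6 had 15.8 to 35.3 against 0 to 3.60. Bsg25A (7.84 to 23.4) and CG34351 (31.6 to 61.8) had no read in any library of replicates 3 and 4. All 7 genes of the run were thus at or near 0 in the same 4 libraries.

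The run ended sharply on both sides. Of the 15 genes of the table from dpy to CG34351, the remaining 8 were below the minimum level, and 1 of these had any read (2 in replicates 1 and 2 and 2 in replicates 3 and 4). Before dpy, the nearest gene considered was ine, with 6.11 to 12.9 against 0.93 to 8.46, and the 3 before it, FIG4, CG15436 and CG15443, differed by -0.36, -0.01 and -0.17. After CG34351, Taf12L, which overlaps it, had 12.9 to 28.5 against 27.9 to 53.6 (-0.97), and CG3294 had 275 to 315 against 275 to 318 (-0.01). HP6 overlaps dpy and Bsg25A overlaps CG11929 in the annotation, and reads of such pairs cannot be told apart.

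**Figure D3:**
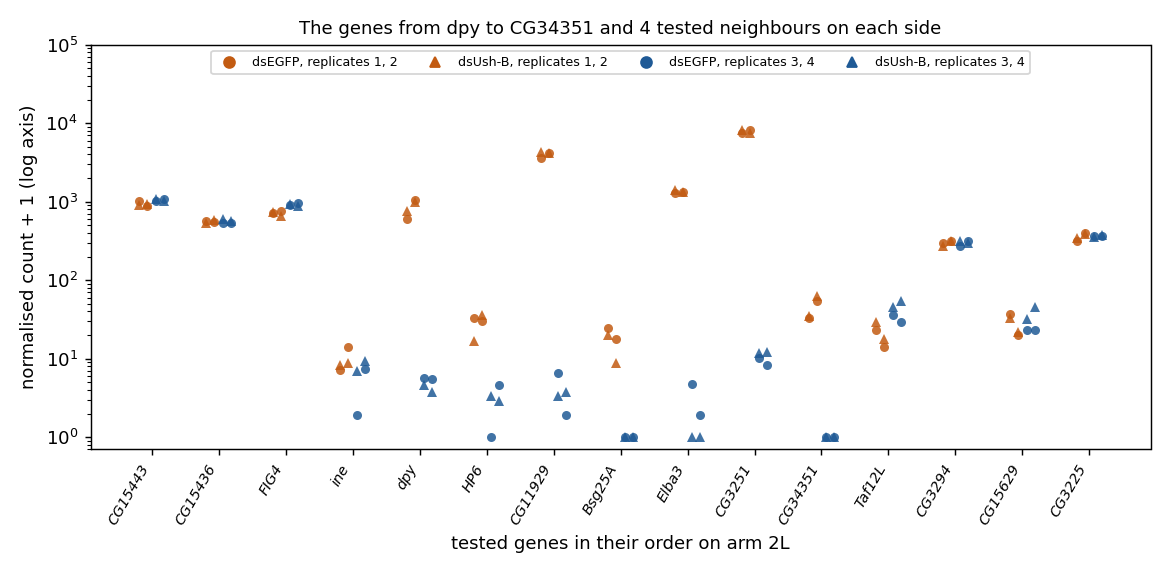
Normalised counts plus 1 on a log axis for the 7 genes from dpy to CG34351 and the 4 nearest genes considered on each side, in their order on arm 2L (not to scale), with 1 point per library. Circles are dsEGFP, triangles dsUsh-B, orange replicates 1 and 2, blue replicates 3 and 4; the colours separate at the 7 genes of the run, while at CG3294 both colours lie between 275 and 318.

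The second longest run lay on arm 3L and held 6 genes that were higher in replicates 3 and 4, CG33986, CG33985, CG42729, CG42728, obst-H and CG43248, of which obst-H belongs to the obstructor family of chitin-binding proteins. CG33985 had 2.94 to 13.9 normalised counts in replicates 1 and 2 and 146 to 237 in replicates 3 and 4, and obst-H 12.7 to 27.9 against 74.8 to 218. Elsewhere on the same arm, obst-F, CG7298 and CG7290 formed a run in the other direction, with 236 to 421 against 0 to 5.6 for CG7298. A run of 5 genes on 3L (CG18234, CG18233, CG18231, CG32201 and CG32199) was higher in replicates 1 and 2. The 4 genes Eaat2, GABA-B-R3, Gr21a and CG3544 on 2L were higher in replicates 3 and 4, with 119 to 521 against 1167 to 2553 for GABA-B-R3, a gene for a metabotropic GABA receptor.

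Shorter runs included related neighbours. The zinc-finger genes elB and noc, which are paralogues, were both higher in replicates 1 and 2, with 64.4 to 146 against 5.95 to 13.5 for elB and 207 to 451 against 21.4 to 37.6 for noc. Gbp1 and Gbp2, which encode growth-blocking peptides, had 233 to 592 against 104 to 186 and 162 to 431 against 37.8 to 65.4. In the other direction, the beta-mannosidase gene beta-Man had 978 to 1161 against 5242 to 6126, together with its neighbours CR33294 and CG14636.

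Whole stretches of neighbouring genes differed by a small amount. In windows of 25 neighbouring genes with a mean of at least 50, the 5th and 95th percentiles of the median difference were -0.11 and 0.07 on 2L, -0.18 and 0.15 on 3L, and -0.09 and 0.08 on 3R. Stretches of at least 40 genes covered by windows with a median of 0.2 or more in either direction were joined to blocks, a rule chosen after the data were seen. It found 4 blocks. As blocks were selected by their difference, an excess of genes above or below 0 and a separation of the libraries follow from that choice. The values given below for each block, also those per dsRNA group, are a description and not support.

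The first 70 genes of arm 2L in this order, from l(2)gl to GABA-B-R3, had a median difference of 0.27, which is 1.21-fold higher in replicates 1 and 2. The difference was above 0 for 59 of the 70 genes, against 44.7% of the 7434 genes on all arms, and the quartiles were 0.06 and 0.41. After centring each gene, the median of the block was 0.10, 0.19, 0.12 and 0.18 in the libraries of replicates 1 and 2 and -0.10, -0.09, -0.13 and -0.15 in those of replicates 3 and 4. The 4 and the 4 libraries did not overlap. The block was of the same size without its 4 genes counted above (0.27) and in dsEGFP (0.25) and dsUsh-B (0.30) alone.

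The first 85 genes of arm 3L, from Pdk1 to Ctr9, behaved in the same manner, with a median of 0.22, 69 genes above 0, and 0.08 to 0.16 against -0.14 to -0.08 in the libraries. The other 2 blocks were higher in replicates 3 and 4 and lay inside an arm. They held 61 genes of 2R from CG8298 to ClC-b (median -0.22, 47 genes below 0) and 56 genes of 3L from Jarid2 to CG33493 (median -0.20, 45 genes below 0). In both, the 4 libraries of replicates 1 and 2 lay below the other 4. With windows of 15 or 50 genes and the same minimum level, a block of the same direction was found in each of these 4 stretches, with borders that moved. In dsEGFP libraries alone the 4 stretches were also found, with a further block on X. In dsUsh-B libraries alone no block was found in the stretch from Jarid2 to CG33493. A block of 54 genes from Cdc6 to CG3689 (-0.21) lay before it on 3L instead. With a minimum mean of 5 and 25 genes a window, the starts of 2L and 3L were found again, the latter in 2 pieces, but no block on 2R was higher in replicates 3 and 4, and further blocks appeared, among them 1 of 55 genes on 2R (0.22). In the first table, where each gene was centred over 9 libraries, the block medians lay between -0.04 and 0.06 at the start of 2L, -0.11 and 0.05 at the start of 3L, -0.15 and 0.07 for the block on 2R, and -0.09 and 0.08 for that inside 3L. The range on 2R was close to that over the Ush-B libraries (-0.13 to 0.12), so block medians of this size also varied among libraries without this split.

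**Figure D4:**
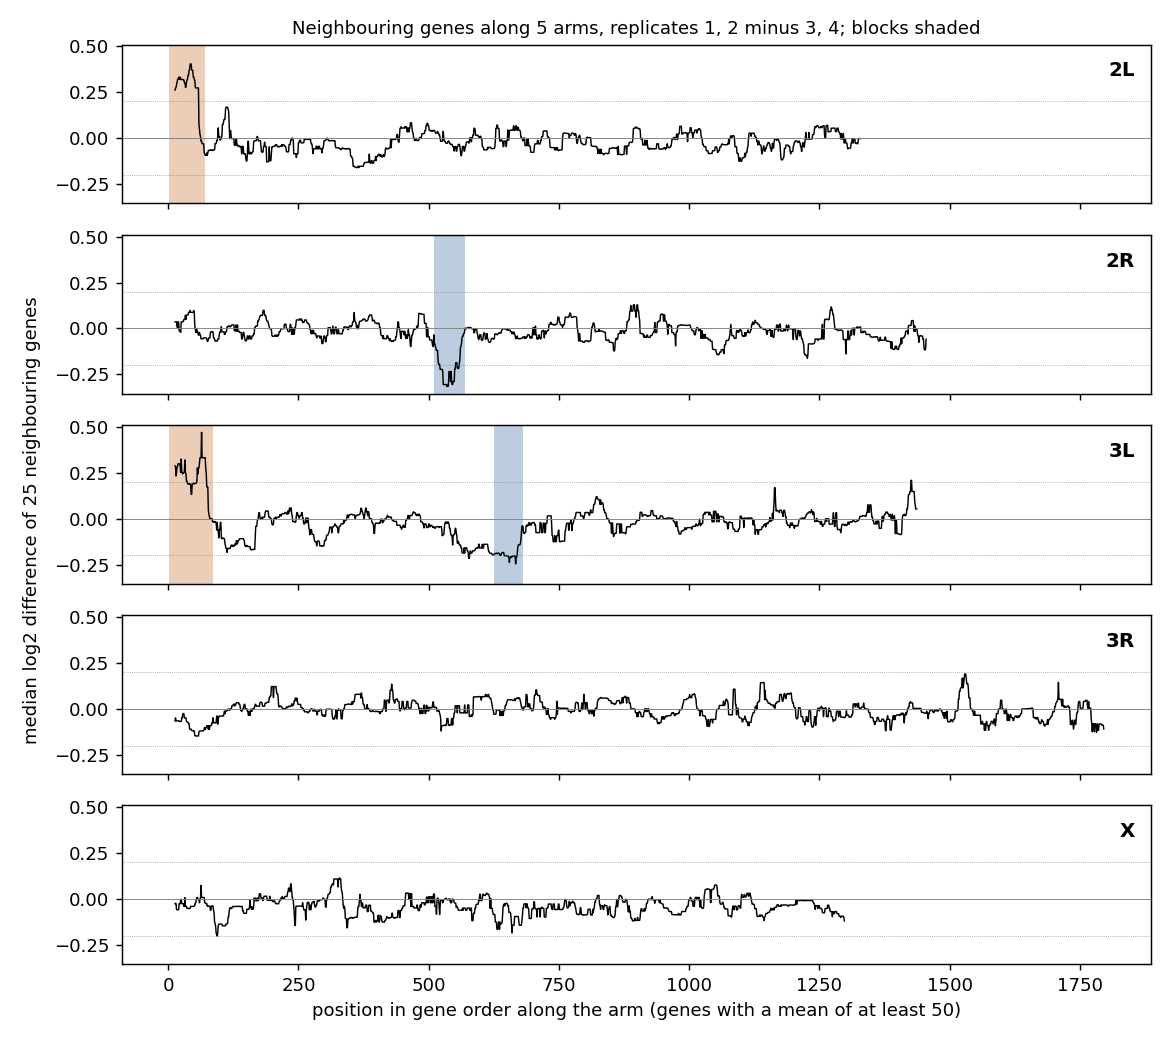
Median log2 difference (replicates 1 and 2 minus replicates 3 and 4) of 25 neighbouring genes along 5 arms, plotted at the middle of each window in gene order, for genes with a mean of at least 50. Shading marks the 4 blocks, orange at the start of 2L and 3L (medians 0.27 and 0.22) and blue inside 2R and 3L (medians -0.22 and -0.20); dotted lines are at 0.2 and -0.2.

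The gene ush itself lies in the block at the start of 2L. It had 9700, 10369, 9993 and 9284 normalised counts in replicates 1 and 2 and 9580, 6411, 6464 and 7661 in replicates 3 and 4 (0.40 ± 0.15), so the groups overlapped at dsEGFP replicate 3. Between dsUsh-B and dsEGFP it differed by -0.11 with an adjusted p of 0.840 (limma). The count covers all isoforms of the gene, of which dsUsh-B targets 1, and reads of the overlapping genes cbt, CR46258 and CR46259 cannot be told apart from it.

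The comparison of dsUsh-B with dsEGFP was fitted with the split as a term. No gene had an adjusted p under 0.05 (0 of 9648 genes, 0%, limma), 775 genes had an unadjusted p under 0.05, and edgeR also called 0 genes whereas DESeq2 called 111. Without the term 1 gene passed (0.0104%, limma), comm2, a commissureless gene of axon guidance, which falls outside the naming rule. It had 46.8, 23.9, 19.6 and 36.9 normalised counts in dsEGFP replicates 1 to 4 and 215, 304, 180 and 230 in dsUsh-B, a log2 difference of 2.88 ± 0.29 with an adjusted p of 0.0679 (limma) once the split was a term. All 4 dsUsh-B libraries were higher than all 4 dsEGFP libraries in both replicate pairs, and comm2 did not separate the pairs (0.32 ± 0.32). None of the 257 genes passed either fit.

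The 9 libraries of the first table were not used to choose the split. Since both tables were normalised separately, levels were compared as CPM (recovered reads scaled to a common library total), as a description. Of the 196 genes higher in replicates 1 and 2, the mean level of the first table's dsEGFP libraries was nearer to replicates 1 and 2 for 159 and nearer to replicates 3 and 4 for 37. Of the 61 genes higher in replicates 3 and 4 it was nearer to replicates 1 and 2 for 59. Among genes with a mean of at least 50 these numbers were 80 of 85 and 36 of 36. The 61 genes were chosen as high in replicates 3 and 4, so any library outside the choice tends to lie nearer to their low side. The 59 of 61 and 36 of 36 are therefore not read as a resemblance to replicates 1 and 2. For the 196 genes replicates 1 and 2 are the high side, and the control cells of the first table were nearer to it for most of them.

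CG11929 had 43.3 to 86.4 CPM in the 9 libraries, where the means of replicates 1 and 2 and of replicates 3 and 4 were 82.5 and 0.0586. For scaf the range was 16.7 to 45.2, against means of 34.1 and 606. Abd-B was intermediate, with 2.97 to 10.8 against 19.1 and 0.00490. The genes also had larger SDs among replicates than all genes, at lower levels. The median SD of log2 values within the groups of the first table was 0.59 for 166 genes higher in replicates 1 and 2 that passed the minimum level there, 0.63 for 36 genes of the other direction, and 0.22 over all genes. The median of the mean normalised counts was 33.0 and 95.5 for the 196 and 61 genes against 1171 for all genes, and log2 values of low genes vary more, so the SDs are not compared at equal level.

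**Figure D5:**
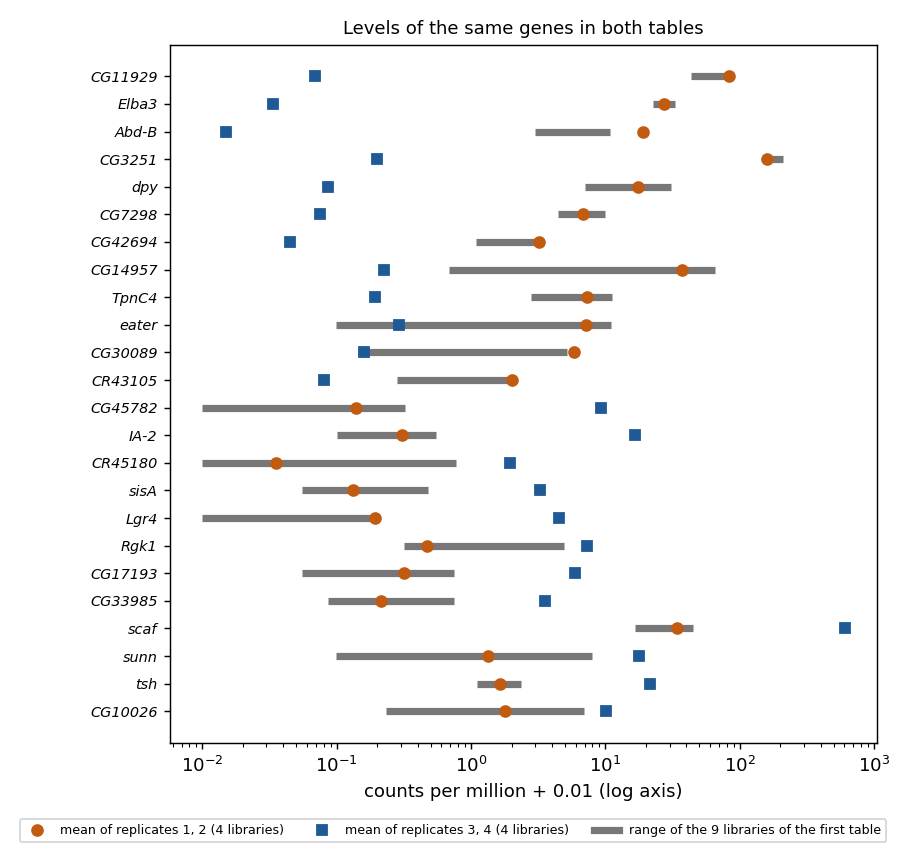
CPM plus a small constant on a log axis for the 24 genes with the largest differences: orange circles are the mean of replicates 1 and 2, blue squares the mean of replicates 3 and 4, and grey bars the range over the 9 libraries of the first table, normalised separately. For scaf the grey bar runs from 16.7 to 45.2 around the orange circle at 34.1, away from the blue square at 606.

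The same genes were then looked up in the comparisons of the first table (limma, adjusted p under 0.01), in which 202 of the 257 genes reached the minimum level. After depletion of all Ush isoforms, 21 of 166 genes higher in replicates 1 and 2 rose (12.7%) and 10 fell (6.02%), against 12.3% and 4.84% of all 9132 genes tested. Both shares are close to those of all genes. Of the 36 genes higher in replicates 3 and 4, 2 rose and 1 fell. After depletion of dMi-2, which shares its control libraries with the Ush comparison, 16 of the 166 genes rose (9.64%) and 1 fell (0.602%), against 4.34% and 1.95% of all genes, and 6 of the 36 rose (16.7%) and none fell. The replicate numbers paired the libraries of the first table, and with the number as a replicate block 57 of the 202 genes passed in the dsUsh comparison and 48 in the dsMi-2 comparison, in place of 34 and 23, against 28.5% and 13% of all genes. The directions changed with the block. Of the 166 genes, 26 rose and 11 fell after dMi-2 depletion (697 and 490 of all 9132 genes). The near absence of falling genes thus did not hold for them. Of the 36 genes 11 rose and none fell. The minimum level was a mean over all 9 libraries, so a gene near 0 in dsEGFP could enter only through a depletion group where it was high. CG33985, for one, had 1.81 to 4.17 normalised counts in dsEGFP and 10.9 to 15.5 in dsMi-2. Rises without falls among the 36 genes, with or without the block, are therefore not read as a result. In the dsUsh comparison with the block, 35 of the 166 genes rose and 17 fell (1589 and 1012 of all genes), and of the 36 genes 3 rose and 2 fell. Without dsMi-2 replicate 3 or without dsEGFP replicate 2 the count for dsMi-2 was 10, and without dsMi-2 replicate 2 it was 13.

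The calls and p-values per gene in this and the next paragraph are from the fit without the replicate block. Those with the block are not given. Of the hemocyte and Toll pathway genes named above, eater, NimC4 and spz fell after Ush depletion. Eater had 230, 95.9 and 196 normalised counts in dsEGFP, 4.34, 2.27 and 10.7 in dsUsh and 11.6, 8.95 and 12.7 in dsMi-2, with log2 differences of -4.80 (adjusted p = 9.48e-05) and -3.77 (adjusted p = 0.00118) in the limma fit. NimC4 had 487, 430 and 717 in dsEGFP, 129, 60.2 and 58.7 in dsUsh and 383, 382 and 448 in dsMi-2, and fell by 2.77 after dsUsh. Spz fell by 1.90, from 2294 to 5605 normalised counts in dsEGFP to 651 to 1216 in dsUsh, and had 3503 to 5535 in dsMi-2. PPO3 had 369 to 477 in dsEGFP, 443 to 641 in dsUsh and 540 to 874 in dsMi-2 and did not pass in either comparison, nor did Hml with 21.9 to 28.9 in dsEGFP and 4.55 to 13.9 in dsUsh.

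Genes of both directions were among those that rose. CG14957, higher in replicates 1 and 2, had 34.4 to 65.2 in dsEGFP and 861 to 1472 in dsUsh. Rgk1, higher in replicates 3 and 4, had 7.47 to 16.3 in dsEGFP, 33.0 to 112 in dsUsh and 64.6 to 102 in dsMi-2, and passed in both comparisons. Sunn moved in opposite directions, with 24.4 to 33.1 in dsEGFP, 2.27 to 8.54 in dsUsh and 103 to 181 in dsMi-2. CG11929, Elba3, CG3251, dpy, Abd-B, scaf and tsh, which are 7 of the 24 genes with the largest differences, had adjusted p from 0.139 to 0.985 in the dsUsh comparison and from 0.361 to 0.993 in the dsMi-2 comparison (limma). These 7 do not stand for all 24. Among the 24, CG14957, eater, Rgk1, sunn and CG30089 passed in the dsUsh comparison. CG30089 had 51 to 125 normalised counts in dsEGFP and 3.4 to 11.7 in dsUsh (-3.36, adjusted p = 0.00234, limma).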

How the data were processed

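Total RNA of S2 cells was sequenced from polyadenylated RNA, and the authors aligned reads with STAR and counted them per gene with featureCounts. The deposited values are a normalised signal, the read counts divided by a size factor per library by the authors (DESeq2), in 1 table for the 8 Ush-B libraries and 1 for the 9 others. The submitters' processing notes name featureCounts 1.6.2, and whether strand was used is not given in the sources used here. Every value was a whole multiple of 1 read within a tolerance of 0.05 (100% of values), so reads were recovered for depth, CPM, edgeR and DESeq2. Genes whose normalised counts averaged 5 or more were kept, and log2(value + 1) was fitted in limma 3.58.1 (R 4.3.3), with edgeR 4.0.16 and DESeq2 1.42.0 as alternatives, after the code was tested on simulated data. A fold change on this scale understates the change of low genes. P-values were adjusted by Benjamini-Hochberg over all genes tested.

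Named were the 12 genes with the largest difference in each direction (mean of at least 50, no overlap), up to 4 counted members per list with the highest mean, genes with an interaction and ush. Other genes (the runs and blocks, comm2, crq and other markers, and those nearest the 2-fold limit) were named after their values were seen. Members and lists were chosen with earlier results of these data known. Gene order came from a Release 6 table that matched 17681 of 17737 names, of which 4 looked like dates, and no coordinates are given because the build of the counts is not clear. In the first table the numbers paired the libraries, as the deviations from the group means of all 9 same-numbered pairs correlated (0.239 to 0.569). Tables of the authors' own comparisons (base mean, fold change, standard error, test statistic and p-values) and the ChIP data were not used.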

Additional observations from a re-analysis of the deposited data

Results flagged for a closer look

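In 51 values examined over the dsRNA groups of the Ush-B table, 102 groups of 4 libraries were tested for a library far from the other 3 (Dixon's criterion at its 95% critical value), which chance alone exceeds in about 1 of 20 groups. It was exceeded 2 times, a number that cannot be read against that rate. The genes examined were mostly chosen because replicates 1 and 2 differ from replicates 3 and 4, which places the 4 values of a group 2 against 2. CG14957 had 6340 normalised counts in dsUsh-B replicate 2, against 11.3 to 693 in the other 3 dsUsh-B libraries. Cyp12b2 had 143.1 in the same library, against 16.6 to 23.2 in the others. Both genes belong to those higher in replicates 1 and 2.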

How the results depend on the processing

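The 196 and 61 genes (257) became 85 and 36 (121) with a minimum mean of 50 and 89 and 39 (128) with a 4-fold minimum, and 94 genes were higher in replicates 3 and 4 with a 1.5-fold minimum. They became 348 and 104 (452) in dsEGFP libraries alone and 317 and 227 (544) in dsUsh-B libraries alone, with the minimum mean taken over those 4 libraries. Leaving out 1 library at a time gave 273 to 411 genes, 201 to 269 in one direction and 61 to 142 in the other. Fewer libraries then had to be apart, which by itself raises the numbers. With upper-quartile and TMM scaling 255 and 257 of the 257 genes were kept, with pseudocounts of 5 and 0.5 it was 215 and 257. The interaction had 0 calls under every alternative run.

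The Ush-B comparison gave 2 genes with a minimum mean of 1, 2 at an adjusted p under 0.1, 1 without the term for the replicate pairs, 111 with DESeq2, and 0 to 2 when 1 library was left out. Calls among the 257 genes numbered 74 for dsUsh and 62 for dsMi-2 at an adjusted p under 0.1, and DESeq2 gave 35 for dsMi-2. Leaving out 1 library gave 24 to 33 and 10 to 24. The cause of these changes was not tested.

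With the replicate block, calls in the first table were 57 for dsUsh and 48 for dsMi-2. In the Ush-B table the replicate pairs are made of replicate numbers, so no block could be fitted to their difference. There the replicate block left 0 interaction calls and 0 Ush-B calls. Same-numbered libraries correlated at 0.557, 0.66, -0.049 and 0.137 in their deviations. Replicates 3 and 4 matched crosswise instead. There, dsEGFP replicate 3 correlated best with dsUsh-B replicate 4 (0.516), and dsEGFP replicate 4 with dsUsh-B replicate 3 (0.762). The numbers are therefore not taken to pair these libraries, and the replicate block joined libraries of replicates 3 and 4 that did not match. A block with replicates 3 and 4 crossed was not fitted.

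Depth limits the genes near 0. Of the 196, 23 had at most 3 reads in each library of replicates 3 and 4, and the size of their difference depends on the pseudocount.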
